A study of Mus musculus with 23 samples.

Results

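The set described here is 47 genes of DNA replication and S phase, taken by gene symbol from a table of 21900 protein-coding genes measured in 23 RNA-seq libraries of mouse T cells. The members are the origin licensing factors, the replicative helicase and its activators, the polymerases and primase, the clamp and clamp loaders, flap removal and ligation, deoxynucleotide supply, chromatin copying, and the cyclins, E2F factors and fork checkpoint adaptor that act around the G1 to S step. The list was drawn up by gene function, and all 47 members were present in the table and passed the filter on low counts.

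The cells were OT-I cells, CD8 T cells with a transgenic receptor for an ovalbumin (OVA) peptide on MHC class I, and OT-II cells, CD4 T cells with a transgenic receptor for an OVA peptide on MHC class II. Both were transferred into wild-type C57BL/6 mice, which kept their own lymphocytes and were given 1 of 4 treatments 1 day later: 1 ug of A8B1-OVA, a higher dose of OVA, the molar equivalent dose of OVA, or saline. On day 5 after transfer the OT-I and OT-II cells were taken by flow sorting out of spleen and lymph node tissue that had been combined, and each library holds RNA pooled from 3 mice. There were 3 libraries per group, except OT-II cells after the higher dose of OVA, with 2 (replicates 2 and 3). The sources used here do not give what A8B1 is, the amount of the higher OVA dose, the age of the mice or the sort gates. The comparisons ask how the replication genes stood after A8B1-OVA against saline and against each dose of free OVA, and whether this differed between the cell types.

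Before a cell can copy its DNA, the origin recognition complex with CDC6 and CDT1 loads the ring-shaped MCM helicase onto origins in G1. Cyclin E with its kinase, and the E2F transcription factors that drive most genes of the pathway, then carry the cell into S phase, where MCM10, CDC45 and the GINS complex switch the helicase on and the polymerases, held by the PCNA clamp, copy both strands. Resting T cells hold these transcripts low, and T cells that have met antigen raise them before they divide.

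Library totals ran from 26.6 M to 73.5 M estimated counts, and the members took between 0.175% and 0.680% of each library. The labelled lineages matched their markers, except for CD4 markers in replicate 1 of OT-I after the higher dose of OVA. The summed level of Cd8a and Cd8b1 was 2386 to 3904 CPM (counts relative to the library total) in OT-I and 26.97 to 60.1 CPM in OT-II libraries. The sum of Cd4 and Zbtb7b was 1.99 to 199 CPM in OT-I and 638 to 789 CPM in OT-II libraries. Replicate 1 of OT-I after the higher dose of OVA held the 199 CPM, with Cd4 at 164 CPM and Zbtb7b at 35.2 CPM. The next highest OT-I library had a sum of 16.8 CPM. The same replicate 1 had the lowest Cd8a and Cd8b1 sum of OT-I, 2386 CPM. This library thus held RNA of CD4 lineage markers, and it is 1 of the 3 libraries in every OT-I comparison with the higher dose. Markers of other cells were raised in single libraries: the 12 myeloid markers summed to 100 to 152.5 CPM after A8B1-OVA and 120 to 467 CPM after saline in OT-I, with 1069 CPM in replicate 2 after molar-equivalent OVA, and to 102 to 179 CPM after A8B1-OVA and 164 to 702 CPM after saline in OT-II. The 11 erythroid markers found summed to 183 to 262 CPM after A8B1-OVA and 157 to 333 CPM after saline in OT-I. Their highest OT-I sum was 704 CPM, in replicate 2 after molar-equivalent OVA. In OT-II they summed to 249 to 440 CPM after A8B1-OVA and 259 to 1188 CPM after saline. The 9 B cell markers found summed to 94.1 to 117 CPM after A8B1-OVA and 64.3 to 136 CPM after saline in OT-I. In OT-II they summed to 37.0 to 75.7 CPM after A8B1-OVA and 51.0 to 133 CPM after saline. Their highest sums came after molar-equivalent OVA, at 535 CPM in replicate 2 of OT-I and 201 CPM in replicate 3 of OT-II. The 4 plasma cell markers summed to 2.91 to 82.4 CPM and the 5 platelet markers to 0.289 to 6.32 CPM over all libraries. The 5 NK cell markers, of which CD8 T cells also express some, summed to 1143 to 2135 CPM in OT-I and 19.9 to 63.7 CPM in OT-II. Their part in the results was not tested, and counts without the 5 libraries with raised markers are given where they move a result. In these bulk libraries, more cells in S phase and more RNA per cell cannot be told apart.

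The promoters of 5 members are shown first, because the E2F factors act through promoters and because these 5 span the responses described below. They are RefSeq windows on build GRCm38.p6, from 250 bases before to 50 bases after the transcript start, written 5′ to 3′ on the gene's own strand. Capitals mark matches to the E2F motif, searched on both strands as TTTCCCGC, TTTCGCGC, TTTGCCGC and TTTGGCGC, whose matches may overlap. Mcm5 (chr8:75109259-75109558, plus strand), Mcm6 (chr1:128359656-128359955, minus strand) and Cdc6 (chr11:98907901-98908200, plus strand) held a match and rose after A8B1-OVA in both cell types, Pole2 (chr12:69228141-69228440, minus strand) held 1 and was called in neither, and Tk1 (chr11:117825965-117826264, minus strand) held none and had the highest fold change of the set in OT-I.
Mcm5: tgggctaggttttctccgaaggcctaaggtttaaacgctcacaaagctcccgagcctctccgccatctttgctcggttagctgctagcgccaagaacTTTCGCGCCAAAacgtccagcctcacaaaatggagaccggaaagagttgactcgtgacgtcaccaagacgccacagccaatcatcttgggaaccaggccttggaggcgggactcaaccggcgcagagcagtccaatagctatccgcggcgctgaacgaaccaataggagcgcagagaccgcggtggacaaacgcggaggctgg
Mcm6: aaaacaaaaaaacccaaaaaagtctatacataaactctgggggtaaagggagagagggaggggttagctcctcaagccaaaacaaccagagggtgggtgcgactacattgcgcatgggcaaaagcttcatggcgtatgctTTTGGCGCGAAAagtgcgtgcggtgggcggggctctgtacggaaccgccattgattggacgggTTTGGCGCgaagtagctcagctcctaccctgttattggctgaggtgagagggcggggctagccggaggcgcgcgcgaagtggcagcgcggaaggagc
Cdc6: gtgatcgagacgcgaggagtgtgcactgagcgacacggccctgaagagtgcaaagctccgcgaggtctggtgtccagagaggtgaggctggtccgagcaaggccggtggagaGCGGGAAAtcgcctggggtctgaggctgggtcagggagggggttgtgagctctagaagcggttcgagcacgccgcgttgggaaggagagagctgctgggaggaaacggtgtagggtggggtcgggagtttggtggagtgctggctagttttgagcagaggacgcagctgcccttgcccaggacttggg
Pole2: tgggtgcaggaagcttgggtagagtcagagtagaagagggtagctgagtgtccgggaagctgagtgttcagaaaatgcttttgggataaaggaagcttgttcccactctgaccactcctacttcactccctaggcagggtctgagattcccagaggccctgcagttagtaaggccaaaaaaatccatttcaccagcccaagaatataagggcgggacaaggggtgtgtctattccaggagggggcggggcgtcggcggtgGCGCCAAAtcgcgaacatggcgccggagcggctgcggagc
Tk1: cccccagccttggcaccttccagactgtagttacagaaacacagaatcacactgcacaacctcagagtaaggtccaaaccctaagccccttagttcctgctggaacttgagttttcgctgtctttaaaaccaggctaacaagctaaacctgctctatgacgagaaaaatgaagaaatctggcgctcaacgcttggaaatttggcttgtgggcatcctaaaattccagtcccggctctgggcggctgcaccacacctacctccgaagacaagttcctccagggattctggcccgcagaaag

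Of the 47 members, 38 had a promoter in the RefSeq table, and 17 of these (44.7%) held an E2F match in at least 1 window, against 552 of 16571 genes of the deposited table with a promoter (3.33%). Counted by window, the shares were 37.8% of 45 member windows and 2.89% of 20206 windows. The CCAAT box, searched as CCAAT and ATTGG, was in 57.9% of member genes and 42.1% of the table's genes. Median GC content was 58.3% in member windows and 57.0% in the table's windows. The 17 members with an E2F match had a median log2 fold change of 1.18 for A8B1-OVA over saline in OT-I, with 13 called higher, and the 21 without had 1.22, with 19 called. In OT-II the medians were 0.80, with 8 called, for the members with a match and 0.67, with 12 called, for those without. These are descriptions of letters in a window, with no test.

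A8B1-OVA went with the highest summed level of the 47 members in both cell types. In OT-I the sum was 5327, 7495 and 3815 CPM after A8B1-OVA, 2461, 3314 and 2863 CPM after the higher dose of OVA, 2752, 2165 and 2485 CPM after molar-equivalent OVA, and 2528, 2431 and 2335 CPM after saline. All A8B1-OVA libraries lay above every other OT-I library, and the A8B1-OVA mean was 2.28 times the saline mean. In OT-II the sums were 2772, 3068 and 2266 CPM after A8B1-OVA, 2079 and 1738 CPM after the higher dose, 1836, 1751 and 1908 CPM after molar-equivalent OVA, and 1939, 1639 and 1718 CPM after saline. Here too the A8B1-OVA libraries were the highest of the cell type, with a mean 1.53 times that of saline. The 6 subunits of the MCM helicase made up a large share of each sum, with 2274 ± 646 CPM after A8B1-OVA and 1028 ± 39.4 CPM after saline in OT-I (SD, n = 3 each).

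**Figure D1:**
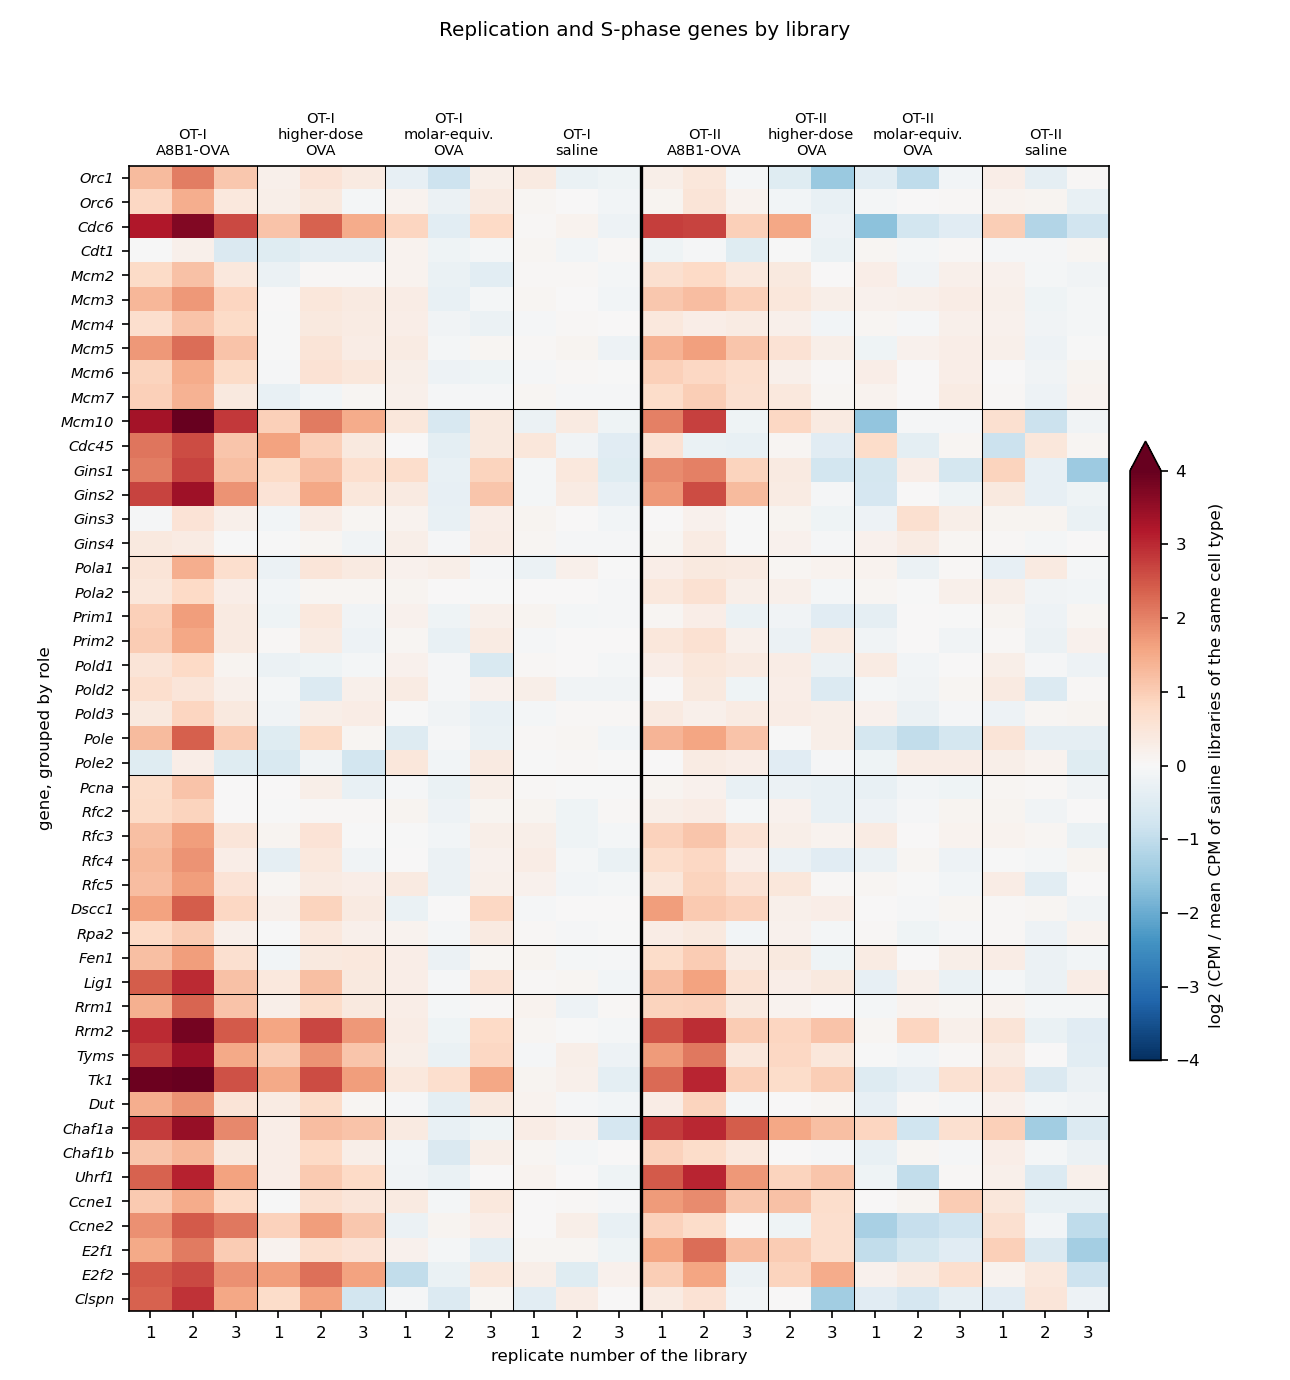
Heatmap of the 47 members (rows, grouped by role) in the 23 libraries (columns, grouped by cell type and treatment), coloured by the log2 ratio of each library's CPM to the saline mean of the same cell type, with colours ending at ±4. The A8B1-OVA columns are warmest in OT-I, where replicate 2 has a median log2 ratio of 1.67 and replicate 3 of 0.75.

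The A8B1-OVA libraries were not alike, and their order was the same in both cell types. Replicate 2 held the highest A8B1-OVA value of 45 of 47 members in OT-I and of 39 in OT-II, and replicate 3 held the lowest of 43 in OT-I and of 40 in OT-II. The median log2 ratio of the members to the saline mean was 1.23, 1.67 and 0.75 in replicates 1, 2 and 3 of OT-I, and 0.72, 0.84 and 0.36 in those of OT-II. Whether OT-I and OT-II libraries of one number came from the same mice is not stated in the labels.

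In OT-I, A8B1-OVA against saline raised 39 of the 47 members and lowered 0, where 7.07% of the 14080 genes tested were called higher and 4.43% lower (edgeR quasi-likelihood test, Benjamini-Hochberg adjusted p under 0.05). The members' median log2 fold change was 1.22, against -0.02 over all genes tested. The 8 not called were Cdt1, Gins3, Gins4, Pcna, Rfc2, Pold1, Pold2 and Pole2. For 39 members the lowest A8B1-OVA library lay above the highest saline library, which held for 16.9% of all genes tested. The number called was 25 without replicate 2 of A8B1-OVA, and 27 without the libraries with raised markers. Over all genes the number called higher was 996, with 497 and 654 under these settings. Of the 39 calls, 24 held under every alternative fit.

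In OT-II the same treatment raised 23 members and lowered 0, where 4.4% of the 14757 genes tested were called higher and 2.88% lower. The median log2 fold change was 0.67 for the members and -0.01 over all genes. All 23 were also called in OT-I, and they made up 59.0% of the 39 members called there. For 26 members the libraries did not overlap with A8B1-OVA above, against 11.6% of genes tested, and for Cdt1 they did not overlap with A8B1-OVA below, against 11.9%. The number called was 15 and 13 without replicates 1 and 2 of A8B1-OVA, and 14 and 12 without replicates 2 and 3 of saline. Over all genes the number called higher was 649, and between 351 and 410 without each of these libraries. The 12 calls that held under every alternative were Mcm3, Mcm5, Mcm6, Mcm7, Gins2, Rfc3, Pole, Lig1, Rrm1, Rrm2, Chaf1a and Uhrf1.

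**Figure D2:**
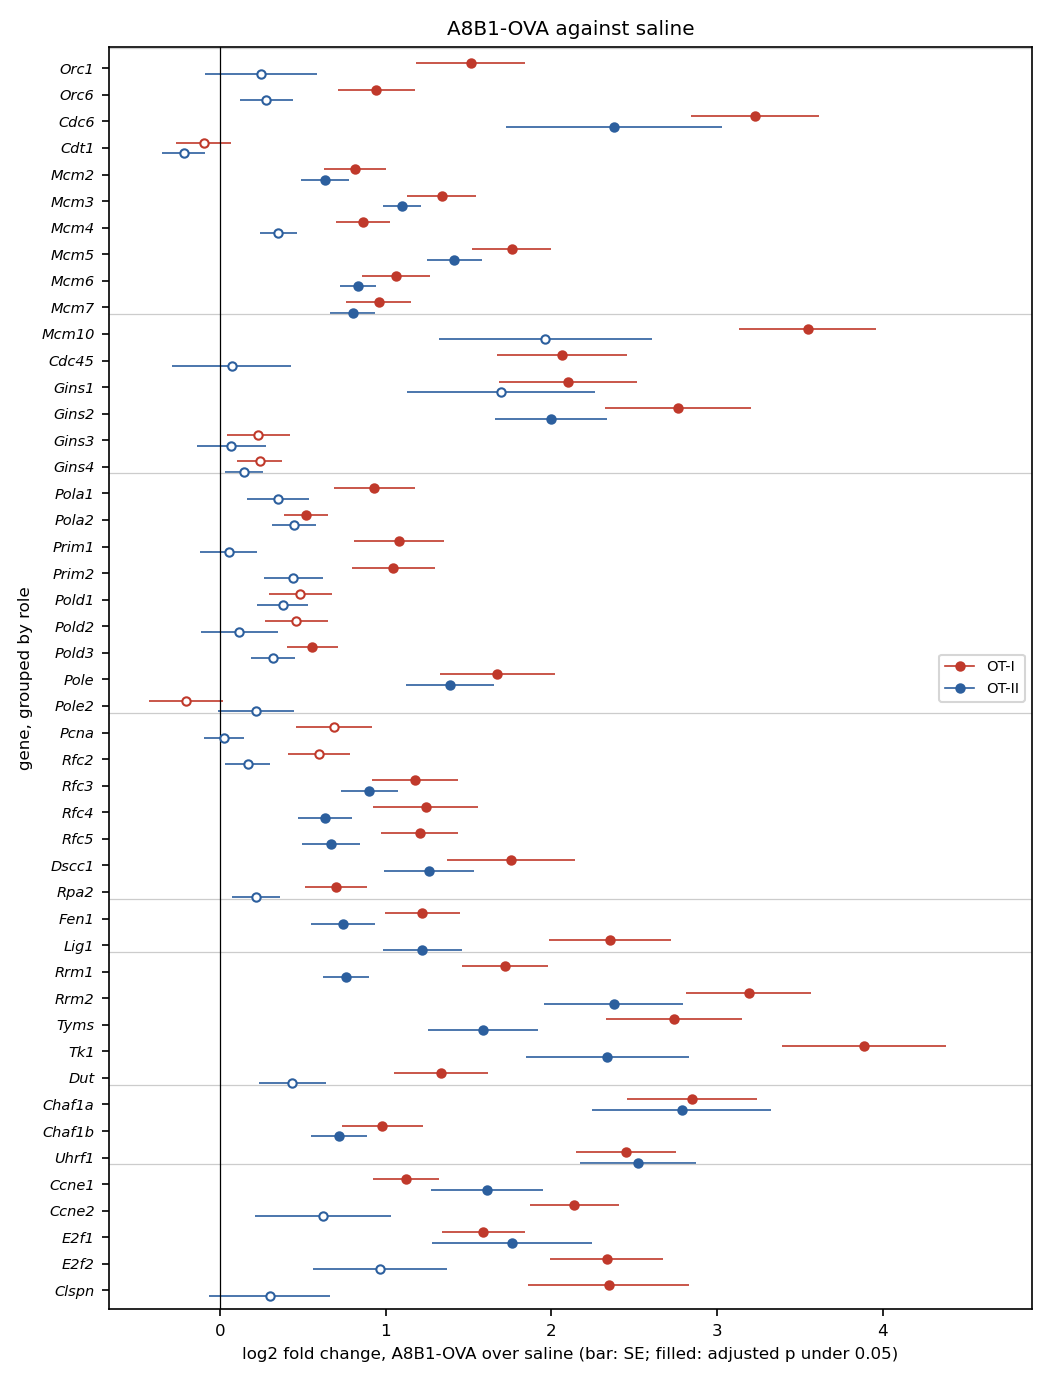
Log2 fold change of A8B1-OVA over saline for each of the 47 members in OT-I and OT-II (points, with standard error bars), ordered by role, with filled points for members called at an adjusted p under 0.05. In OT-I the values run from -0.20 (Pole2) to 3.89 (Tk1), and in OT-II from -0.22 (Cdt1) to 2.79 (Chaf1a).

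Origin licensing had 9 of 10 members called in OT-I and 6 of 10 in OT-II. CDC6, which loads the helicase together with CDT1, had the largest difference of the group. Cdc6 was at 53.3, 74.6 and 36.1 CPM after A8B1-OVA in OT-I, against 5.98, 6.32 and 5.02 CPM after saline (log2 fold change 3.23 ± 0.39, ± SE throughout; adjusted p = 0.000248). These libraries stood far apart. In OT-II, Cdc6 was at 16.6, 15.8 and 4.71 CPM after A8B1-OVA and 4.77, 1.06 and 1.41 CPM after saline (2.38 ± 0.65, adjusted p = 0.0472), and replicate 3 of A8B1-OVA lay just under the highest saline library. Cdt1, the partner loading factor, was called in neither cell type. It was at 73.7, 85.6 and 49.9 CPM after A8B1-OVA and 78.3, 67.8 and 75.8 CPM after saline in OT-I (-0.10 ± 0.17, adjusted p = 0.755), with overlap. In OT-II all 3 A8B1-OVA libraries were below saline, at 42.5, 46.8 and 34.2 CPM against 47.1, 47.04 and 51 CPM, but the difference was not called (-0.22 ± 0.13, adjusted p = 0.366).

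All 6 helicase subunits, Mcm2 to Mcm7, were called in OT-I, with log2 fold changes between 0.81 (Mcm2) and 1.76 (Mcm5). Mcm5 had 416, 593 and 276 CPM after A8B1-OVA, against 131, 136 and 109 CPM after saline in OT-I (1.76 ± 0.24, adjusted p = 0.000485). In OT-II it had 171, 208 and 143 CPM after A8B1-OVA, against 76.5, 56.9 and 64.6 CPM after saline (1.41 ± 0.17, adjusted p = 0.000582). Neither pair of groups overlapped, and the saline libraries of each cell type lay close together. In OT-II, 5 of the 6 subunits were called and Mcm4 was not (0.35 ± 0.11, adjusted p = 0.0857). ORC1, the largest subunit of the origin recognition complex, was scarce: Orc1 had 8.76, 15.2 and 7.67 CPM after A8B1-OVA and 4.67, 3.04 and 3.25 CPM after saline in OT-I (1.51 ± 0.33, adjusted p = 0.0104). Its OT-II values, 4.52, 5.25 and 3.64 CPM after A8B1-OVA and 4.56, 2.94 and 3.92 CPM after saline, overlapped and were not called (0.25 ± 0.34, adjusted p = 0.755). Orc6, another subunit of that complex, was called in OT-I (0.94) and not in OT-II (0.28).

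Helicase activation had 4 of 6 members called in OT-I and 1 of 6 in OT-II. MCM10 is needed for the loaded helicase to start unwinding. Mcm10 had 32.6, 59.3 and 22.9 CPM after A8B1-OVA, against 2.76, 4.12 and 2.85 CPM after saline in OT-I (3.55 ± 0.41, adjusted p = 0.000206), the second highest fold change of the set. In OT-II, Mcm10 had 6.06, 9.803 and 1.33 CPM after A8B1-OVA and 2.297, 0.817 and 1.35 CPM after saline (1.97 ± 0.64, adjusted p = 0.0908), where replicate 3 of A8B1-OVA lay inside the saline range. CDC45 joins MCM and GINS to form the active helicase. Cdc45 had 45.2, 62.4 and 22.3 CPM after A8B1-OVA and 13.96, 9.23 and 7.52 CPM after saline in OT-I (2.06 ± 0.39, adjusted p = 0.00491), with no overlap. In OT-II its libraries were scattered in both groups, at 47.2, 26.5 and 25.9 CPM after A8B1-OVA and 17.7, 43.97 and 33.7 CPM after saline (0.07 ± 0.36, adjusted p = 0.944).

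The 4 subunits of GINS were not called alike. Gins2 had 70.8, 113 and 37.9 CPM after A8B1-OVA, against 10.3, 13.4 and 8.65 CPM after saline in OT-I (2.76 ± 0.44, adjusted p = 0.00157). In OT-II it had 19, 34.8 and 13.6 CPM after A8B1-OVA, against 7.51, 4.51 and 5.05 CPM after saline (2.00 ± 0.34, adjusted p = 0.00385), again with no overlap. Gins1 was called in OT-I (2.10) and not in OT-II (1.70, adjusted p = 0.0977). Gins3 (0.23 in OT-I and 0.07 in OT-II) and Gins4 (0.24 in OT-I and 0.15 in OT-II) were called in neither cell type. Gins2 shares 66.2% of its 31-base words with other genes, most with the overlapping gene Gse1. Gse1 was not called in either cell type (0.17 in OT-I and -0.01 in OT-II).

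The polymerases and primase had 6 of 9 members called in OT-I and 1 of 9 in OT-II, and their summed level after A8B1-OVA was 1.55 times saline in OT-I, the smallest ratio of the 8 roles there, and 1.25 times saline in OT-II. Polymerase alpha, with the primase, lays down the starting primers, polymerase epsilon extends the leading strand and polymerase delta the lagging strand. Pole, the catalytic subunit of polymerase epsilon, had 34.7, 74.8 and 29.2 CPM after A8B1-OVA, against 14.7, 15.03 and 13.3 CPM after saline in OT-I (1.67 ± 0.35, adjusted p = 0.00824). In OT-II, Pole had 11.8, 13.6 and 9.99 CPM after A8B1-OVA, against 6.54, 3.58 and 3.56 CPM after saline (1.39 ± 0.26, adjusted p = 0.00818). The groups were apart in both cell types. Pole2, the second subunit of the same enzyme, was not called: it had 18.2, 30.3 and 17.9 CPM after A8B1-OVA and 25.1, 25.98 and 24.8 CPM after saline in OT-I (-0.20 ± 0.22, adjusted p = 0.603), with overlap. Pola1, the catalytic subunit of polymerase alpha, had 25.1, 47.7 and 28.04 CPM after A8B1-OVA, against 14.8, 20.2 and 17.4 CPM after saline in OT-I (0.93 ± 0.24, adjusted p = 0.0258). Its OT-II values, 15.6, 16.7 and 16.5 CPM after A8B1-OVA and 10.1, 16.4 and 12.1 CPM after saline, overlapped (0.35 ± 0.19, adjusted p = 0.32). The delta subunits Pold1 and Pold2 were called in neither cell type, and Pold3 was called in OT-I alone (0.56 in OT-I, 0.32 in OT-II). Both primase subunits were called in OT-I (Prim1 1.08, Prim2 1.05) and neither in OT-II (Prim1 0.05, Prim2 0.44).

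PCNA, the sliding clamp that keeps the polymerases on DNA, was abundant and was called in neither cell type. Pcna had 249, 334 and 154 CPM after A8B1-OVA and 155, 151 and 148 CPM after saline in OT-I (0.69 ± 0.23, adjusted p = 0.075); replicates 1 and 2 of A8B1-OVA were above saline and replicate 3 was inside the saline range. In OT-II, Pcna had 166, 170.3 and 126 CPM after A8B1-OVA and 162, 157 and 139 CPM after saline (0.03 ± 0.12, adjusted p = 0.939), with libraries both above and below the saline range. The clamp loader subunits Rfc3, Rfc4 and Rfc5 were called in both cell types, with log2 fold changes of 1.18, 1.24 and 1.21 in OT-I. Their values were 0.90, 0.63 and 0.67 in OT-II, and Rfc2 was called in neither. Dscc1, a subunit of the alternative clamp loader that acts in sister chromatid cohesion, was called in both (1.76 in OT-I, 1.26 in OT-II). Rpa2, a subunit of the protein that coats single-stranded DNA, was called in OT-I (0.70) and not in OT-II (0.22).

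Both enzymes that finish lagging-strand fragments were called in both cell types. FEN1 cuts away the flap at the end of each fragment: Fen1 had 155, 213 and 103 CPM after A8B1-OVA, against 72.3, 63.3 and 64.5 CPM after saline in OT-I (1.22 ± 0.23, adjusted p = 0.00439). In OT-II, Fen1 had 82.6, 99.2 and 63.2 CPM after A8B1-OVA, against 60.5, 41.6 and 45.8 CPM after saline (0.74 ± 0.19, adjusted p = 0.0367). LIG1 seals the nick that remains. Lig1 had 122.7, 179 and 51.5 CPM after A8B1-OVA, against 23.7, 23.8 and 20.9 CPM after saline in OT-I (2.35 ± 0.37, adjusted p = 0.00134). In OT-II, Lig1 had 47.5, 60.8 and 30.3 CPM after A8B1-OVA, against 18.8, 16.8 and 24.4 CPM after saline (1.22 ± 0.24, adjusted p = 0.00948). No A8B1-OVA library overlapped with saline for either gene. Fen1 shares 79.6% of its 31-base words with other genes, most with Gm10143, and its overlapping neighbour Tmem258 was not called in either cell type (0.55 in OT-I and 0.21 in OT-II).

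Nucleotide supply had all 5 members called in OT-I and 4 of 5 in OT-II, and its summed level was the most raised of the 8 roles in OT-I, at 4.45 times saline, against 2.02 times in OT-II. RRM2 is the small subunit of ribonucleotide reductase, which makes deoxynucleotides and is held to S phase. Rrm2 had 156, 282 and 109 CPM after A8B1-OVA, against 21.1, 19.8 and 18.6 CPM after saline in OT-I (3.19 ± 0.38, adjusted p = 0.000232). In OT-II, Rrm2 had 53.9, 72 and 18.8 CPM after A8B1-OVA, against 13.5, 7.87 and 6.83 CPM after saline (2.38 ± 0.42, adjusted p = 0.00532). Tk1, the cytosolic thymidine kinase of the thymidine salvage route, had the largest fold change of the set in OT-I: 57.6, 90.97 and 22.4 CPM after A8B1-OVA, against 4.103, 4.4 and 2.91 CPM after saline (3.89 ± 0.49, adjusted p = 0.000335). In OT-II, Tk1 had 12.98, 22.2 and 5.21 CPM after A8B1-OVA, against 3.98, 1.797 and 2.31 CPM after saline (2.34 ± 0.49, adjusted p = 0.014). Tyms, thymidylate synthase, had 106, 163 and 44.8 CPM after A8B1-OVA, against 14.9, 18.2 and 13.4 CPM after saline in OT-I (2.74 ± 0.41, adjusted p = 0.00102). In OT-II its values were 34.2, 45.4 and 14.4 CPM after A8B1-OVA and 13.2, 10.6 and 7.78 CPM after saline (1.59 ± 0.33, adjusted p = 0.0135). For these 3 genes the groups were apart in both cell types. Rrm1, the large reductase subunit, was called in both (1.72 in OT-I, 0.76 in OT-II), and Dut, which clears dUTP, was called in OT-I (1.34) and not in OT-II (0.44).

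**Figure D3:**
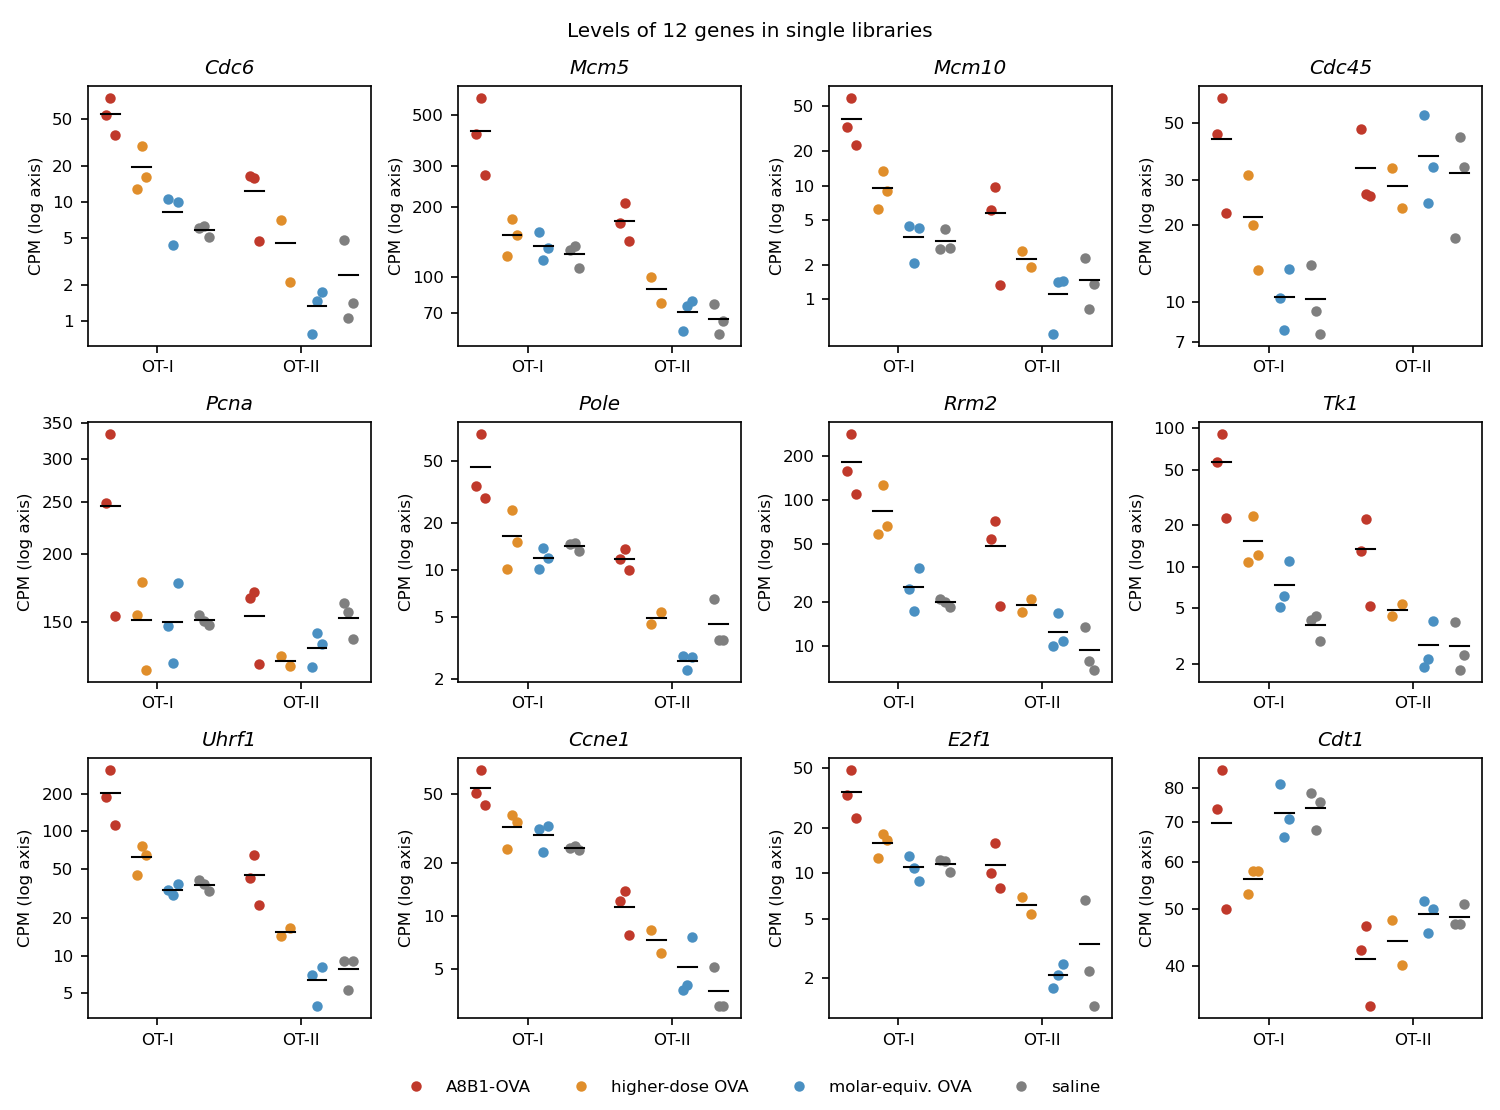
CPM of 12 members in every library (points; log axis), by cell type and treatment, with a black line at each group mean. The A8B1-OVA points of Cdc6 and Mcm10 in OT-I (36.1 to 74.6 CPM and 22.9 to 59.3 CPM) lie above all other OT-I points. Those of Cdt1 in OT-I (49.9 to 85.6 CPM) reach both below and above the other OT-I points, which run from 52.8 to 81.1 CPM.

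The 3 genes of chromatin copying were called in both cell types, with a summed level 4.37 times saline in OT-I and 3.03 times in OT-II. UHRF1 reads hemimethylated DNA behind the fork and brings in the maintenance methyltransferase. Uhrf1 had 190.1, 310.4 and 112 CPM after A8B1-OVA, against 40.6, 37.6 and 32.9 CPM after saline in OT-I (2.45 ± 0.30, adjusted p = 0.000271). In OT-II, Uhrf1 had 42.5, 64.9 and 25.7 CPM after A8B1-OVA, against 9.04, 5.33 and 9.06 CPM after saline (2.52 ± 0.35, adjusted p = 0.00129). Both differences were larger than the spread of the libraries. CHAF1A and CHAF1B are subunits of the assembly factor that places histones on new DNA. Chaf1a had the highest fold change of the set in OT-II, at 16.4, 18.97 and 12.6 CPM after A8B1-OVA, against 4.56, 0.898 and 1.63 CPM after saline (2.79 ± 0.54, adjusted p = 0.00893). Chaf1b differed less, with 62.4, 73.5 and 38.7 CPM after A8B1-OVA and 30.7, 27.5 and 29.5 CPM after saline in OT-I (0.98 ± 0.24, adjusted p = 0.0205). In OT-II, Chaf1b had 39.5, 34.95 and 28.1 CPM after A8B1-OVA and 25.2, 20.03 and 17.7 CPM after saline (0.72 ± 0.17, adjusted p = 0.0228). Chaf1a shares 51.0% of its 31-base words with other genes, most with the overlapping gene Ubxn6. Ubxn6 was not called (-0.14 in OT-I and -0.20 in OT-II).

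All 5 regulators were called in OT-I, and Ccne1 and E2f1 were called in OT-II. Ccne1 and Ccne2 encode cyclin E, which starts S phase with its kinase. Ccne1 had 50.3, 68.3 and 42.99 CPM after A8B1-OVA, against 24.6, 25.04 and 23.8 CPM after saline in OT-I (1.12 ± 0.20, adjusted p = 0.0033). In OT-II, Ccne1 had 12.2, 13.8 and 7.81 CPM after A8B1-OVA, against 5.12, 3.06 and 3.04 CPM after saline (1.61 ± 0.34, adjusted p = 0.0137). The lowest OT-I library of Ccne1 was above the highest OT-II library in each of these treatments. Ccne2 had 13.4, 20.9 and 16.4 CPM after A8B1-OVA, against 3.88, 4.46 and 3.06 CPM after saline in OT-I (2.14 ± 0.27, adjusted p = 0.0003). Its OT-II libraries overlapped, at 6.63, 5.75 and 3.45 CPM after A8B1-OVA and 5.46, 3.23 and 1.74 CPM after saline (0.62 ± 0.41, adjusted p = 0.439).

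E2f1 and E2f2 encode activator E2Fs, the transcription factors of the G1 to S genes. E2f1 had 33.1, 48.4 and 23.1 CPM after A8B1-OVA, against 12.2, 12.1 and 10.1 CPM after saline in OT-I (1.59 ± 0.25, adjusted p = 0.00138). In OT-II, E2f1 had 10.03, 15.99 and 7.99 CPM after A8B1-OVA, against 6.603, 2.25 and 1.31 CPM after saline (1.76 ± 0.48, adjusted p = 0.0467), with all A8B1-OVA libraries above saline. E2f2 had 44.4, 50.1 and 28.5 CPM after A8B1-OVA, against 9.41, 5.76 and 9.01 CPM after saline in OT-I (2.33 ± 0.34, adjusted p = 0.00087). In OT-II the E2f2 values of 15.1, 22.9 and 6.51 CPM after A8B1-OVA and 8.46, 10.1 and 4.28 CPM after saline overlapped (0.97 ± 0.41, adjusted p = 0.189). Claspin, the adaptor that passes a stalled-fork signal to the checkpoint kinase, was called in OT-I and not in OT-II. Clspn had 24.2, 34.6 and 13.6 CPM after A8B1-OVA, against 3.49, 5.83 and 4.796 CPM after saline in OT-I (2.35 ± 0.48, adjusted p = 0.00796). In OT-II, Clspn had 6.12, 7.37 and 4.51 CPM after A8B1-OVA and 3.61, 6.81 and 4.26 CPM after saline (0.30 ± 0.37, adjusted p = 0.721), with overlap.

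Free OVA at the molar-equivalent dose gave no called member over saline in either cell type. In OT-I 0 members were called in edgeR, where 0% of genes were called in either direction, and 0 members and 266 genes had an unadjusted p under 0.05 in edgeR. DESeq2 called 0 members. The extremes were Tk1 at 0.95 ± 0.46 and Cdc6 at 0.52 ± 0.36, and Pole and Orc1 at -0.26 each. In OT-II 0 members were called in edgeR and 0 in DESeq2, where 0% of genes were called. Here 2 members and 577 of the 14757 genes tested had an unadjusted p under 0.05 in edgeR, which are similar shares. The libraries lay above saline without overlap for 1 member in each cell type, Tk1 in OT-I and Gins4 in OT-II, against 2.45% of genes in OT-I and 3.78% in OT-II, and below it for 0 members in OT-I, against 2.68%, and for Pole in OT-II, against 4.24%. The extremes in OT-II were Ccne1 at 0.46 and Rrm2 at 0.42, and Ccne2 at -0.97 and Cdc6 at -0.84.

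A8B1-OVA against this same molar amount of OVA raised 37 members and lowered 0 in OT-I, where 6.56% of genes were called higher and 4.06% lower. The median log2 fold change was 1.18, and 37 members had no overlap between libraries, against 13.3% of genes. Mcm10 (3.40 ± 0.41, adjusted p = 0.000331) and Tk1 (2.93 ± 0.47, adjusted p = 0.00205) were highest. Mcm10 had 32.6, 59.3 and 22.9 CPM after A8B1-OVA, against 4.4, 2.08 and 4.23 CPM after molar-equivalent OVA. Pole2 (-0.45 ± 0.22, adjusted p = 0.217) and Cdt1 (-0.07 ± 0.17, adjusted p = 0.832) were lowest and not called. The count was 23 without replicate 2 of A8B1-OVA, where 429 genes in all were called higher, against 924 with it. In OT-II, 21 members were called higher and 0 lower, where 3.94% of genes were called higher and 2.43% lower, and 33 members had no overlap, against 12.7% of genes. Cdc6 (3.21 ± 0.68, adjusted p = 0.0152) and Uhrf1 (2.81 ± 0.35, adjusted p = 0.00087) were highest, and Cdt1 (-0.24) and Gins3 (-0.18) lowest. Uhrf1 had 42.5, 64.9 and 25.7 CPM after A8B1-OVA, against 6.99, 3.92 and 8.12 CPM after molar-equivalent OVA in OT-II. The OT-II count was 13 and 12 without replicates 1 and 2 of A8B1-OVA, and 8 and 12 without replicates 1 and 2 of molar-equivalent OVA. Over all genes the number called higher was 581, with 351, 341, 303 and 359 without these libraries.

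The higher dose of OVA raised 5 members over saline in OT-I and lowered 0, where 1.97% of genes were called higher and 0.44% lower. They were Cdc6, Rrm2, Tk1, Ccne2 and E2f2. Rrm2 had 58.8, 127 and 65.8 CPM after the higher dose, against 21.1, 19.8 and 18.6 CPM after saline (2.10 ± 0.36, adjusted p = 0.01). Tk1 had 10.8, 23.3 and 12.1 CPM after the higher dose, against 4.103, 4.4 and 2.91 CPM after saline (2.04 ± 0.46, adjusted p = 0.0373). Cdc6 had 12.7, 29.6 and 16.2 CPM after the higher dose, against 5.98, 6.32 and 5.02 CPM after saline (1.78 ± 0.37, adjusted p = 0.0245). For these 3 genes no higher-dose library overlapped with saline. The higher-dose libraries of Cdc6 lay below those of A8B1-OVA, whereas for Rrm2 and Tk1 replicate 2 of the higher dose was above replicate 3 of A8B1-OVA. E2f2 (1.88 ± 0.34, adjusted p = 0.0122) had 25.8, 37.1 and 24.4 CPM after the higher dose, against 9.41, 5.76 and 9.01 CPM after saline. Ccne2 (1.29 ± 0.26, adjusted p = 0.0211) had 7.22, 12.2 and 8.05 CPM after the higher dose, against 3.88, 4.46 and 3.06 CPM after saline. For 15 members the higher-dose libraries lay above all saline libraries, against 11.2% of genes, and for Cdt1, Pold1 and Pole2 below them, against 10.9% of genes. The median over the 47 members was 0.29, with Pole2 (-0.45) and Cdt1 (-0.38) lowest. These calls rest on few libraries: 0, 0 and 0 were left without replicate 2 of the higher dose, replicate 2 of saline or replicate 3 of saline, 1 without replicate 1 of saline and 3 without replicate 3 of the higher dose. Without the libraries with raised markers, which include replicate 1 of the higher dose and replicate 1 of saline, 2 were called. Over all genes the number called higher was 277, and between 63 and 138 under these settings.

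In OT-II no member was called for the higher dose over saline (edgeR, 2 higher-dose libraries), where 0.0203% of genes were called higher and 0.00678% lower. The number with an unadjusted p under 0.05 in edgeR was 8, against 872 of the 14757 genes tested, and DESeq2 called 0 members. For 11 members the libraries did not overlap with the higher dose above, against 10.7% of genes, and for Pcna, Rfc4 and Orc1 they did not overlap with the higher dose below, against 9.78% of genes. The highest were Chaf1a (1.40 ± 0.56, adjusted p = 0.805) and E2f2 (1.20 ± 0.44, adjusted p = 0.723), and the lowest Orc1 (-0.90) and Clspn (-0.53). Chaf1a had 6.94 and 5.397 CPM after the higher dose, against 4.56, 0.898 and 1.63 CPM after saline.

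Set against the higher dose of OVA, A8B1-OVA raised 14 members in OT-I and lowered 0, where 1.63% of genes were called higher and 0.774% lower, and all 47 had a positive log2 fold change with a median of 0.95. The 14 were Mcm2, Mcm3, Mcm5, Mcm7, Mcm10, Gins2, Rfc5, Pole, Fen1, Lig1, Rrm1, Chaf1a, Uhrf1 and E2f1. For 26 members the libraries did not overlap with A8B1-OVA above, against 11.9% of genes, and for 0 with A8B1-OVA below, against 9.21%. Mcm10 had 32.6, 59.3 and 22.9 CPM after A8B1-OVA, against 6.24, 13.6 and 9.06 CPM after the higher dose (1.96 ± 0.39, adjusted p = 0.0243). Chaf1a had 64.1, 102 and 34.8 CPM after A8B1-OVA, against 10.9, 21.7 and 20.4 CPM after the higher dose (1.89 ± 0.38, adjusted p = 0.0267). Mcm5 had 416, 593 and 276 CPM after A8B1-OVA, against 123.4, 178 and 152 CPM after the higher dose (1.47 ± 0.24, adjusted p = 0.0104). Each of these groups stood apart. Gins3 (0.10) and Pole2 (0.25) were lowest. Rrm2 (1.09 ± 0.35, adjusted p = 0.122) and Tk1 (1.85 ± 0.45, adjusted p = 0.0515) were not called between A8B1-OVA and the higher dose; this comparison and that of the higher dose with saline share the higher-dose libraries.

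The count of 14 moved with single libraries. It was 3, 1 and 38 without replicates 1, 2 and 3 of A8B1-OVA, and 1, 7 and 0 without replicates 1, 2 and 3 of the higher dose, and it was 0 without the libraries with raised markers. The number called higher over all genes moved as well: it was 230 with all libraries, 70, 33 and 891 without replicates 1, 2 and 3 of A8B1-OVA, 57, 85 and 40 without those of the higher dose, and 29 without the libraries with raised markers. In OT-II, 5 members were called higher and 0 lower against the higher dose, where 0.82% of genes were called higher and 0.522% lower: Mcm3 (0.76), Mcm5 (0.99), Mcm6 (0.70), Gins2 (1.83) and Rfc4 (0.99). Gins2 had 19, 34.8 and 13.6 CPM after A8B1-OVA, against 7.21 and 5.54 CPM after the higher dose (1.83 ± 0.39, adjusted p = 0.0415). Mcm5 had 171, 208 and 143 CPM after A8B1-OVA, against 99.5 and 77.5 CPM after the higher dose (0.99 ± 0.19, adjusted p = 0.0303). For 23 members these libraries did not overlap, against 13% of genes. Lowest were E2f2 (-0.23) and Cdt1 (-0.08). The OT-II count was 0, 0 and 10 without replicates 1, 2 and 3 of A8B1-OVA, and 0 and 0 without replicates 2 and 3 of the higher dose. Over all genes it was 121 with all libraries, 27, 24 and 146 without those of A8B1-OVA, and 5 and 12 without those of the higher dose.

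**Figure D4:**
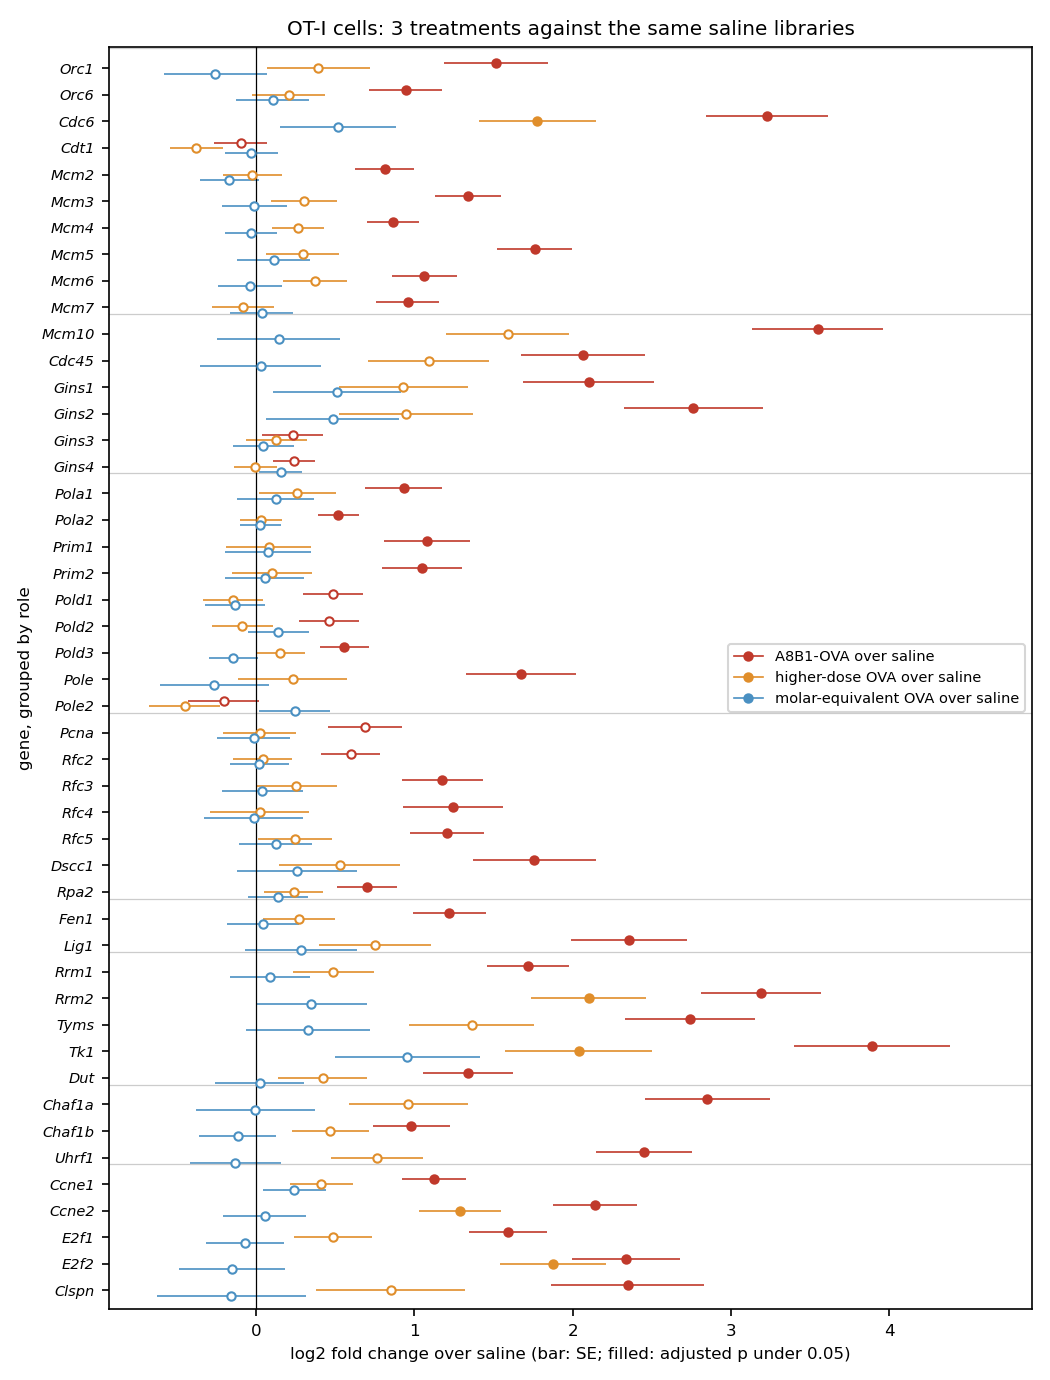
Log2 fold change over saline in OT-I for each of the 47 members after A8B1-OVA, the higher dose of OVA and molar-equivalent OVA (points, with standard error bars; filled where called), all against the same saline libraries. The median is 1.22 for A8B1-OVA with 39 members called, 0.29 for the higher dose with 5 called, and 0 are called for molar-equivalent OVA.

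Whether OT-I and OT-II responded differently was tested on the difference of their log2 fold changes. For A8B1-OVA over saline, the OT-I change was the larger in 43 of 47 members, with a median difference of 0.51, but 0 members were called (edgeR), where 0.309% of genes were called higher and 0.125% lower. In edgeR 14 members had an unadjusted p under 0.05, as did 1408 of the 15235 genes tested, and DESeq2 called 1 member, Cdc45. The largest differences were those of Clspn (2.07 ± 0.64, adjusted p = 0.218) and Cdc45 (2.02 ± 0.58, adjusted p = 0.172), and the most negative those of Ccne1 (-0.46 ± 0.39, adjusted p = 0.806) and Pole2 (-0.40 ± 0.33, adjusted p = 0.793). Prim1 was called without replicate 3 of A8B1-OVA in OT-I (1.32 ± 0.295, adjusted p = 0.0422). With OT-I and OT-II libraries of the same treatment and replicate number paired as a block in edgeR, Clspn was called (1.98 ± 0.30, adjusted p = 0.00982). Cdc45, Prim1 and Clspn are all among the 16 members called in OT-I and not in OT-II, and each was called for the difference in 1 alternative fit only. For A8B1-OVA over the higher dose, and for the higher dose over saline, 0 members were called by edgeR and 0 by DESeq2, where 0% and 0.00656% of genes were called higher. In these 2 tests 0 and 1 members had an unadjusted p under 0.05 in edgeR, against 786 and 772 of the 15235 genes tested.

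The cell types did differ in level. After saline, 13 members were higher and 1 lower in OT-I than in OT-II, where 8.36% of genes were called higher and 7.11% lower. Ccne1 had 24.6, 25.04 and 23.8 CPM in OT-I, against 5.12, 3.06 and 3.04 CPM in OT-II (log2 fold change of OT-I over OT-II 2.71 ± 0.30, adjusted p = 1.7e-06). Uhrf1 had 40.6, 37.6 and 32.9 CPM in OT-I, against 9.04, 5.33 and 9.06 CPM in OT-II (2.25 ± 0.35, adjusted p = 0.000127). The groups were well apart for both. The other members called higher were Chaf1a (1.96), E2f1 (1.76), Pole (1.65), Pole2, Mcm2, Mcm3, Mcm5, Mcm6, Cdt1, Pola2 and Pold3. Cdc45 went against them, with 13.96, 9.23 and 7.52 CPM in OT-I and 17.7, 43.97 and 33.7 CPM in OT-II (-1.63 ± 0.41, adjusted p = 0.00915). For 27 members every OT-I library was above every OT-II library after saline, against 18.2% of genes, and for Cdc45 every one was below, against 16.5%. Clspn was the next lowest and was not called (-0.06). Of the 14 calls, 8 held under every alternative fit, and that of Cdc45 was not among them.

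After A8B1-OVA, 41 members were higher in OT-I than in OT-II and 0 lower, where 12.2% of genes were called higher and 8.34% lower. Mcm10 had 32.6, 59.3 and 22.9 CPM in OT-I, against 6.06, 9.803 and 1.33 CPM in OT-II (2.74 ± 0.57, adjusted p = 0.00186). Ccne1 had 50.3, 68.3 and 42.99 CPM in OT-I, against 12.2, 13.8 and 7.81 CPM in OT-II (2.26 ± 0.29, adjusted p = 1.4e-05). No libraries overlapped for these genes, and the same held for 31 members in all, against 16.9% of genes. The 6 not called were Cdc45 (0.38), Gins1 (1.10), Gins3 (0.31), Gins4 (0.30), Pold1 (0.48) and Pold2 (0.41). The count was 21 without replicate 2 of A8B1-OVA in OT-I, where 1072 genes in all were called higher, against 1864 with it. Of the 41 calls, 18 held under every alternative fit.

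Levels between genes were compared as mean CPM per kilobase of the longest coding transcript. On that scale Pcna was the most abundant member in all 8 groups, with a level of 162 after A8B1-OVA and 99.5 after saline in OT-I, and 101 after A8B1-OVA and 101 after saline in OT-II. The MCM subunits came next in OT-I after A8B1-OVA, with levels of 131 for Mcm6, 131 for Mcm3 and 127 for Mcm5. After saline in OT-I the order was Mcm6 at 62.2, Mcm2 at 54.9 and Mcm3 at 51.2. In OT-II after saline, Mcm4 at 39.5 and Gins4 at 39.4 followed Pcna. Orc1 and Clspn, at 3.50 and 4.80, were the least abundant members in OT-I after A8B1-OVA. Mcm10 was the lowest in all 4 OT-II groups, with a level of 1.18 after A8B1-OVA and 0.306 after saline, and it was also the lowest in OT-I after saline, at 0.666.

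Genes of replication outside the set were taken as 6 lists of 99 genes in all. In OT-I after A8B1-OVA against saline, 36 of the 99 were called higher and 5 lower, against 7.07% and 4.43% of all genes tested. Their median log2 fold change was 0.44. The number called lower was near the share over all genes. In origin firing, Recql4 (2.09), Ticrr (1.86) and Gmnn (1.52), which encodes the CDT1 inhibitor geminin, were called higher and Orc5 (-0.51) lower. Among polymerase and maturation factors, Dna2 (2.65), a nuclease of long flaps, and Chtf18 (1.32), of the cohesion clamp loader, were called higher and Pole4 (-0.46) lower. In nucleotide supply, Shmt1 (1.79), of folate metabolism, was called higher. Rrm2b (-0.79), the reductase subunit used outside S phase, and Ctps2 (-0.42) were called lower. Among cyclins and E2Fs, Ccna2, cyclin A of S phase and mitosis, had 70.8, 181 and 51.4 CPM after A8B1-OVA, against 4.46, 4.33 and 2.85 CPM after saline (4.68 ± 0.61, adjusted p = 0.00039). E2f8 (4.53), a repressor E2F, and Cks1b (2.77) were called higher with it, and E2f5 (-0.61) lower. Hells (1.68) and Cdca7 (2.09), a chromatin remodeller and its partner, and the fork repair gene Fancd2 (3.94) were called higher.

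In OT-II, 23 of the 99 were called higher and 4 lower after A8B1-OVA against saline, against 4.4% and 2.88% of all genes tested. Their median was 0.30, and the number called lower was again near the share over all genes. Those called higher included Shmt1 (1.88), Cdca7 (1.79), Hells (1.79), Timeless (0.79), of the fork protection complex, and Tfdp1 (1.08), the E2F partner. The 4 called lower were Orc5 (-0.44), Samhd1 (-0.46), which breaks down deoxynucleotides, Tk2 (-0.34), the mitochondrial thymidine kinase, and E2f5 (-0.74). In OT-I after the higher dose of OVA against saline, Dck (0.62), Ccna2 (2.87) and E2f8 (2.98) were called higher and Dctd (-0.96) lower, that is 3 and 1 of 99, against 1.97% and 0.44% of all genes tested. The median of the 99 was 0.02. A8B1-OVA against the higher dose in OT-I called 16 of the 99 higher and 1 lower, against 1.63% and 0.774% of all genes tested.

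The 20 genes of a mitosis list, set beside the replication genes, differed more in summed level than the members did. In OT-I the sum was 1033, 2115 and 703 CPM after A8B1-OVA, 264, 566 and 380 CPM after the higher dose, 112, 113 and 205 CPM after molar-equivalent OVA, and 110, 112 and 108 CPM after saline. The A8B1-OVA mean was 11.7 times the saline mean and the higher-dose mean 3.67 times. In OT-II the sums were 260, 380.5 and 89.4 CPM after A8B1-OVA, 133 and 127 CPM after the higher dose, 41.3, 72.5 and 79.4 CPM after molar-equivalent OVA, and 105.0, 45.5 and 43.1 CPM after saline. Replicate 3 of A8B1-OVA lay inside the OT-II saline range. In OT-I all 20 were called higher after A8B1-OVA against saline, where 7.07% of all genes tested were called higher. After the higher dose of OVA against saline 12 were called higher, against 1.97% of all genes tested, with a median log2 fold change of 2.04. In OT-II, 6 of 20 were called higher after A8B1-OVA against saline, against 4.4% of all genes tested.

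**Figure D5:**
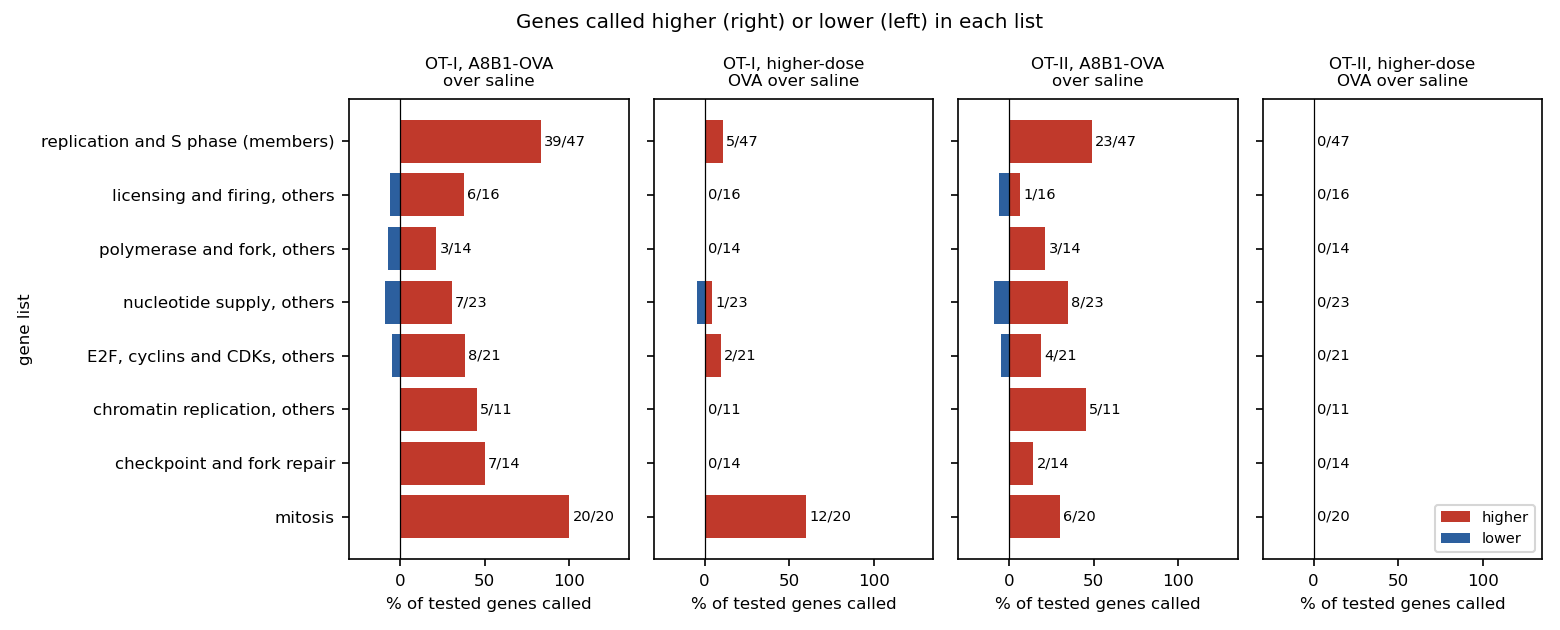
Share of each gene list called higher (right of 0) or lower (left of 0), in percent of its tested genes, for the members, the 6 other replication lists and the mitosis list, by comparison, with the number called higher over the number tested beside each bar. In OT-I, A8B1-OVA against saline called 39 of 47 members and 20 of 20 mitosis genes higher, against 7.07% of all genes tested.

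Some members cannot be counted apart from other transcripts with certainty. Of the 47, 14 shared at least 10% of their 31-base words with other genes: Mcm7 (33.4%, most with Gm5487), Pcna (23.3%, Pcna-ps2), Uhrf1 (24.2%, Gm5648), Rfc2 (19.4%, Lat2), Rfc5 (19.3%, Wsb2), Ccne2 (15.6%, Ints8), Rfc4, Pole2, Rrm2, Tyms and Orc1, besides Gins2, Fen1 and Chaf1a above. Without the strand of the libraries, reads of overlapping genes on opposite strands cannot be told apart.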

How the data were processed

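Polyadenylated RNA of sorted OT-I and OT-II cells was turned into cDNA by the SmartSeq method, with the RNA of 3 mice pooled per library, per the labels' protocols. Reads were demultiplexed with bcl2fastq and quantified with kallisto 0.46.1 on GRCm38, per the submitters' processing notes. The authors deposited 1 table of estimated counts per gene for 21900 protein-coding genes and 23 libraries. How the authors went from transcripts to these deposited expected counts per gene is not stated: the annotation release, the strand and any rounding were not given in the sources used here. Estimated counts are rounded before a count test, and 0 of the deposited values were not whole, so rounding changed nothing. Of the value columns, 0 belonged to no sample.

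Counts were tested with edgeR 4.0.16 (R 4.3.3): TMM factors, filterByExpr (minimum count 10, minimum total 15), glmQLFit and glmQLFTest, with Benjamini-Hochberg adjustment over all genes tested, and calls under 0.05. Each cell type was fitted alone with its 4 groups (14080 genes in OT-I, 14757 in OT-II), and contrasts between cell types came from 1 fit of all 23 libraries (15235 genes). CPM in the text is relative to the TMM-scaled library size of the joint fit, and marker sums use plain totals. Totals of 26.6 M to 73.5 M counts set a floor of 0.0408 to 0.113 CPM for a value of 0 (3 counts, counting error only, as amplified reads carry no molecular identifiers). The p-values measure the spread between pools of mice, which may be partly technical, as nothing more is said of how the libraries are separate. The 47 members, the other gene lists and the genes given in full were chosen with earlier results of these data known. Values per library are given for a panel of members chosen by role, and in each comparison for members among the 2 highest and 2 lowest log2 fold changes, those called against the majority, and called or uncalled members where 8 or fewer.

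Alternatives were DESeq2 1.42.0, RLE factors, no filter, only the groups compared, the replicate number as a block, and leaving out each library. In the joint fit of both cell types, the block was each pair of OT-I and OT-II libraries of the same treatment and number. A further one, chosen after the marker sums were seen, left out the libraries with raised markers of other cells: saline replicate 1 of both cell types, molar-equivalent OVA replicate 2 and higher-dose replicate 1 of OT-I, and molar-equivalent OVA replicate 3 of OT-II. Positions, transcript lengths and shared words of 31 bases are from GENCODE M21 (GRCm38), which held 21806 of the identifiers. Promoters are RefSeq windows.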

Additional observations from a re-analysis of the deposited data

How the results depend on the processing

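Numbers are members called higher of 47. The direction of every called member did not reverse under any alternative run. The 1 call lower, that of Cdc45 for OT-I over OT-II after saline, did not hold under every alternative. For A8B1-OVA over saline, DESeq2 called 41 in OT-I (main 39) and 27 in OT-II (main 23). For A8B1-OVA over the higher dose of OVA, the count was 35 in OT-I with DESeq2, 4 with only the groups compared and 0 without the libraries with raised markers (main 14), and 13 in OT-II with DESeq2 and 1 with only the groups compared (main 5). With only the groups compared, the count was 22 for A8B1-OVA over molar-equivalent OVA in OT-I (main 37), 8 for the higher dose over saline in OT-I (main 5) and 23 for OT-I over OT-II after A8B1-OVA (main 41). Without the libraries with raised markers, the higher dose over saline in OT-I gave 2. DESeq2 called 1 member, Cdc45, for the difference between cell types in A8B1-OVA over saline (main 0). The causes of these moves were not tested. Where libraries were left out, the number called over all genes moved as well, as given above. Whether the moves under the other settings are particular to the members was not tested.

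With 1 library left out at a time, the counts ran from 25 to 42 for A8B1-OVA over saline in OT-I, and for OT-II from 12 to 25. For A8B1-OVA over molar-equivalent OVA they ran from 23 to 42 with OT-I and 8 to 25 with OT-II, and over the higher dose from 0 to 38 with OT-I and 0 to 10 with OT-II. For the higher dose over saline they ran from 0 to 6 with OT-I and were 0 with OT-II, and they were 0 for molar-equivalent OVA over saline in both. OT-I over OT-II gave 9 to 13 after saline and 21 to 43 after A8B1-OVA. The differences between cell types gave 0 to 1 for A8B1-OVA over saline and 0 for the others. Where a group was left with 1 library, it was assumed to vary like the other groups.

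Libraries of one replicate number did not deviate together in every pair. The median correlation of their deviations was -0.014 within OT-I and -0.005 within OT-II, against 0.015 and 0 for different numbers. Between the cell types it was 0.128 (from -0.026 to 0.281, and from 0.128 to 0.281 for the 3 pairs after saline). For different numbers it was -0.018 there (from -0.244 to 0.127). Each library was also matched with the libraries of the other cell type in the same treatment, 3 at most. Of 23 libraries, 15 correlated best with their own number there. Replicate 1 of OT-I after the higher dose had no OT-II library of its number. The main tests between cell types did not pair libraries. With the replicate block the count was 38 for A8B1-OVA over saline in OT-I and 20 in OT-II, 11 and 0 over the higher dose in OT-I and OT-II, 37 and 20 over molar-equivalent OVA, 5 for the higher dose over saline in OT-I, and 41 after A8B1-OVA and 19 after saline for OT-I over OT-II. The block of paired OT-I and OT-II libraries in edgeR called 1 member, Clspn, for the difference between cell types in A8B1-OVA over saline (1.98 ± 0.30, adjusted p = 0.00982).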
